A study of Mus musculus with 8 samples.

Results

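A set of 10 integrated stress response genes, *Gdf15*, *Atf3*, *Atf4*, *Atf5*, *Ddit3*, *Trib3*, *Asns*, *Chac1*, *Sesn2* and *Nupr1*, was examined in ventricles of mouse embryos that overproduced neuregulin-1. They were matched by symbol to Ensembl identifiers, and 10 of 10 were found among the 53465 genes listed in the count table and among the 15580 genes tested. The genes were chosen by hand with their counts in these same libraries known, above all the high level of *Gdf15* in the transgenic ventricles, and the question was whether that level came with the rest of the ATF4 programme. The values of the 10 genes are therefore a description. Their p values are not given, and how many of them passed in the fit over all genes is counted only to be set beside the share of all genes that did.

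RNA was sequenced from E15.5 heart ventricles, 1 ventricle sample per library, in 2 groups of 4 libraries. *Nrg1GOF* embryos, labelled Rosa26Nrg-1;Nkx5.5-Cre, carried an *Nrg1* gain-of-function transgene at the Rosa26 locus together with a Cre driver that the study's text names as *Nkx2.5Cre*, so that the transgene is switched on in the cells in which that cardiac driver recombines and not in all cells of the ventricle. The control embryos were labelled WT, and the labels do not say whether they carried the driver or the transgene alone. Neither litter nor sex was given, so p values measure the spread between these samples.

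The integrated stress response is a pathway by which cells answer a shortage of amino acids, misfolded protein in the endoplasmic reticulum, viral RNA or a lack of heme. Stress kinases phosphorylate the translation factor eIF2, which lowers protein synthesis in general but favours translation of the mRNA of ATF4, a basic leucine zipper factor that then switches on genes for amino acid uptake and synthesis, for feedback and, through CHOP, for cell death. Because ATF4 is controlled mostly through translation, the level of *Atf4* mRNA is not a measure of ATF4 protein. GDF15 is a secreted member of the TGF-beta superfamily that is released by stressed tissues, the heart included, and its gene is known as a target of ATF4 and CHOP as well as of p53 and EGR1.

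Library totals ranged from 18754259 to 26786039 counts, except for *Nrg1GOF* library 4 with 8038641. Across all tested genes 4467 (28.7%) passed an adjusted p of 0.05 in the quasi-likelihood test of edgeR, 15.9% higher and 12.8% lower in *Nrg1GOF*, and the median log2 fold change was -0.012. Between WT libraries 1 and 2 the median chi-square per gene was 1.03 and between WT libraries 3 and 4 it was 0.867. The other WT pairs were at 2.66 to 3.18, and counting noise alone gives 0.455. In *Nrg1GOF*, libraries 2 and 4 were at 1.09 and the other pairs at 1.72 to 3.06. Each comparison was repeated with the close WT pairs summed and with each of them as the only controls. The *Nrg1GOF* libraries were not summed. Summed levels of ventricular cardiomyocyte markers lay between 23401 and 29247 counts-per-million (CPM) in *Nrg1GOF* and between 34394 and 35871 CPM in WT, where CPM is taken on the library size scaled by trimmed mean of M-values. The sum of atrial markers was 1601 to 1774 against 1001 to 1120 CPM (3 of 6 rose) and that of epicardium and fibroblast markers 2488 to 3151 against 1425 to 1821 CPM (5 of 6 rose and 1 fell), and none of these markers was at 0. The sum of pericyte and smooth muscle markers was 854 to 965 against 1230 to 1415 CPM (1 of 5 rose and 3 fell), and that of endothelium and endocardium markers 1137 to 1247 against 1079 to 1104 CPM (3 of 6 rose). Red blood cell markers summed to 13014 and 12175 CPM in WT libraries 1 and 2, to 5490 and 4406 CPM in WT libraries 3 and 4 and to 5419 to 8883 CPM in *Nrg1GOF*, so they split the WT libraries as the close pairs do, and 0 of 7 passed. Their part in the calls that depend on the WT pairs was not tested. In bulk tissue, a change in the number of cells of a type and a change of RNA per cell cannot be told apart.

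*Trib3*, *Asns*, *Atf5* and *Atf4* were higher beside *Gdf15* in *Nrg1GOF*, and none of the 10 genes passed as lower. Values by library are given in the order of libraries 1 to 4. Of the 10 genes, 5 passed the adjusted p of 0.05 in the fit over all genes, each of them higher in *Nrg1GOF*, namely *Gdf15*, *Trib3*, *Asns*, *Atf5* and *Atf4*, beside 28.7% of all tested genes (15.9% higher and 12.8% lower). In the same 5 genes the groups did not overlap, a pattern shown by 30.7% of all tested genes, 16.6% higher and 14.1% lower. The other 5, *Chac1*, *Sesn2*, *Atf3*, *Ddit3* and *Nupr1*, overlapped between the groups and did not pass. The median log2 fold change over the 10 genes was 0.34. Since the genes were chosen with this comparison known, nothing is read from these counts.

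**Figure D1:**
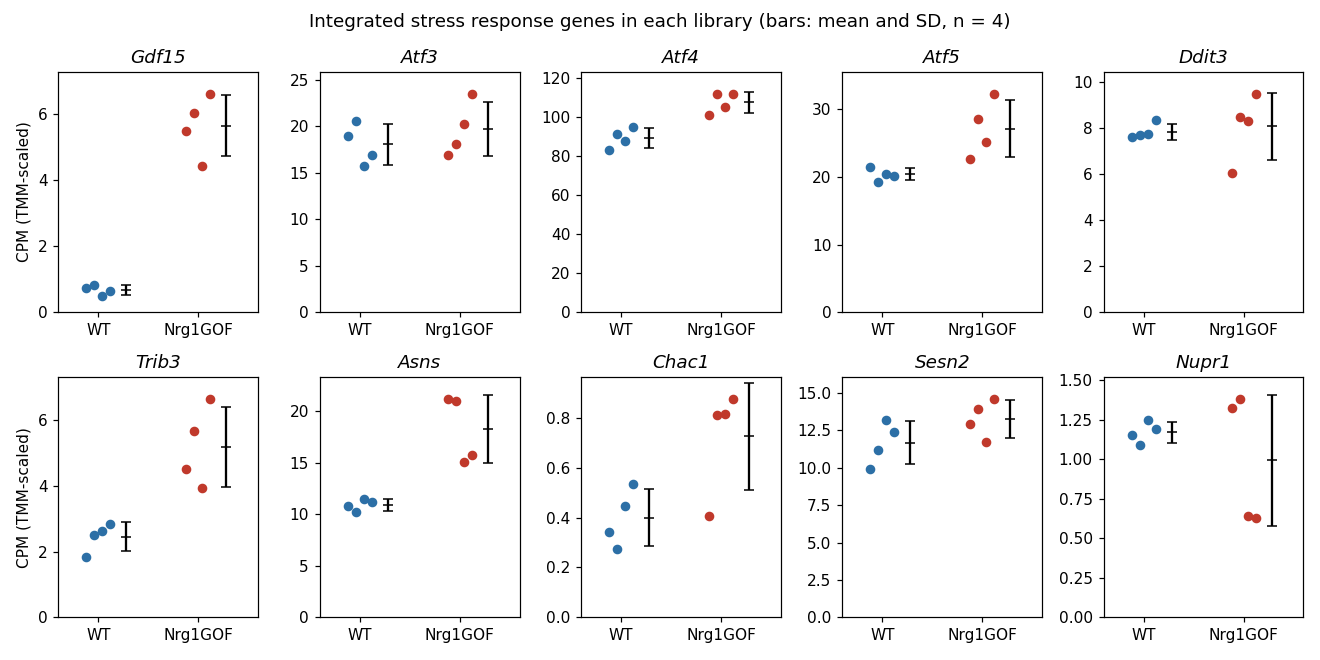
Level in CPM (TMM-scaled, linear axes from 0) of the 10 genes in each of the 4 WT (blue) and 4 *Nrg1GOF* (red) libraries, with bars for the mean and SD. The groups are apart in *Gdf15*, *Atf4*, *Atf5*, *Trib3* and *Asns* and overlap in the other 5 genes.

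*Gdf15* (ENSMUSG00000038508, GRCm38 chromosome 8, 70629393 to 70632456, minus strand) is the secreted ligand of the set. It was found at 5.49, 6.05, 4.45 and 6.63 CPM in *Nrg1GOF* and at 0.726, 0.818, 0.485 and 0.656 CPM in WT. The lowest *Nrg1GOF* library was thus above the highest WT library by a wide margin, although the WT values rest on 12 to 19 counts per library and those of *Nrg1GOF* on 53 to 127. The means were 5.65 ± 0.928 and 0.671 ± 0.141 CPM (SD, n = 4 each), which is 3.06 on the log2 scale (SE 0.22) or 8.35-fold. Leaving out any 1 library kept this between 2.93 and 3.17.

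Macrophages are among the cells known to express *Gdf15*. Of the macrophage markers *Adgre1*, *Csf1r*, *Cd68*, *C1qa*, *C1qb*, *C1qc* and *Fcgr1*, 7 of 7 rose, beside 15.9% of all tested genes. The median log2 fold change of these markers was 1.01. Their summed level was 82 to 92.5 CPM in *Nrg1GOF* and 38.5 to 44.5 CPM in WT, and none was at 0. The part of these cells in the *Gdf15* level was not tested.

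The receptor of GDF15 was not detected. *Gfral*, the receptor that GDF15 is known to bind in the hindbrain, had no counts in any of the 8 libraries, which at 3 counts allows a level of up to 0.115 CPM in the deepest library and 0.375 CPM in the shallowest. *Ret*, its co-receptor, was at 0.977 ± 0.222 CPM in *Nrg1GOF* and 0.826 ± 0.171 CPM in WT (SD, n = 4 each) and did not pass (log2 fold change 0.24, SE 0.28, adjusted p = 0.561). The proprotein convertases, enzymes that cleave precursors of secreted ligands, were more abundant. *Furin* stood at 201, 228, 243 and 222 CPM in *Nrg1GOF* and at 133, 124, 116 and 119 CPM in WT, with no overlap. On the log2 scale *Furin* rose by 0.86 (SE 0.07, adjusted p = 3.94e-05), *Pcsk5* by 0.49 (SE 0.10, adjusted p = 0.00487) and *Pcsk6* by 0.39 (SE 0.10, adjusted p = 0.0146), while the difference of *Pcsk7* was near 0. In all, 3 of 5 tested genes of this list rose and none fell, beside 15.9% higher and 12.8% lower of all tested genes. The call of *Pcsk6* was lost with the WT pairs summed (adjusted p = 0.0689) and with WT libraries 1 and 2 as the controls (0.30, adjusted p = 0.124).

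The transcription factors of the set differed in whether they changed. *Atf4* (ENSMUSG00000042406, chromosome 15, 80255184 to 80257541, plus strand), the central factor, was at 101, 112, 105 and 112 CPM in *Nrg1GOF* and at 82.9, 91.3, 87.8 and 95.1 CPM in WT libraries 1 to 4. The groups were apart, but the gap was small against the level, with means of 108 ± 5.16 and 89.3 ± 5.19 CPM (SD, n = 4 each). The log2 fold change was 0.27 (SE 0.06), or 1.20-fold.

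*Atf5* (ENSMUSG00000038539, chromosome 7, 44812256 to 44816658, minus strand), a close relative of *Atf4* whose mRNA is likewise translated more under stress, was at 22.6, 28.5, 25.2 and 32.3 CPM in *Nrg1GOF* and at 21.5, 19.3, 20.5 and 20.2 CPM in WT. All 4 *Nrg1GOF* libraries were higher than every WT library, the lowest of them by little. The log2 fold change was 0.40 (SE 0.10). Of the 5 genes it was the one that did not pass without *Nrg1GOF* library 2, with the close WT pairs summed, or against WT libraries 1 and 2 alone. *Atf5* overlaps *Nup62* on the opposite strand by 571 bases, which holds 84 bases of identical transcript sequence, and the strand setting of the counting is not given in the sources used here.

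*Atf3* (ENSMUSG00000026628, chromosome 1, 191170296 to 191218039, minus strand), which is induced by ATF4 and by many other stimuli and represses stress genes, was at 16.9, 18.1, 20.2 and 23.5 CPM in *Nrg1GOF* and at 19, 20.6, 15.7 and 16.9 CPM in WT. The ranges overlapped, with *Nrg1GOF* library 4 above every WT library, and the log2 fold change was 0.11 (SE 0.12). *Ddit3* (ENSMUSG00000025408, chromosome 10, 127290774 to 127296288, plus strand), which encodes CHOP, the factor linked to cell death under lasting stress, was at 6.04, 8.48, 8.30 and 9.50 CPM in *Nrg1GOF* and at 7.60, 7.69, 7.76 and 8.36 CPM in WT. Its log2 fold change was 0.03 (SE 0.14), with *Nrg1GOF* libraries on both sides of the WT range. *Ddit3* shares 68 identical bases with *Mars* on the opposite strand.

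*Nupr1* (ENSMUSG00000030717, chromosome 7, 126623249 to 126630861, minus strand), a small stress-induced chromatin protein, was at 1.32, 1.38, 0.641 and 0.625 CPM in *Nrg1GOF* and at 1.15, 1.09, 1.25 and 1.19 CPM in WT. Libraries 1 and 2 of *Nrg1GOF* were above WT and libraries 3 and 4 below it, on 5 to 29 counts, and the log2 fold change was -0.19 (SE 0.30). Its counts were not whole in 5 of 8 libraries, and its transcripts hold stretches of 61 to 70 bases that match other genes at 95.1% identity or more, so its level is uncertain.

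Among the effector genes, *Trib3* and *Asns* showed the clearest gaps. *Trib3* (ENSMUSG00000032715, chromosome 2, 152337422 to 152344032, minus strand), a pseudokinase induced by ATF4 and CHOP that feeds back on ATF4, was at 4.49, 5.67, 3.93 and 6.63 CPM in *Nrg1GOF* and at 1.83, 2.51, 2.63 and 2.83 CPM in WT. Every *Nrg1GOF* library was above every WT library, with a log2 fold change of 1.06 (SE 0.21) or 2.08-fold. *Asns* (ENSMUSG00000029752, chromosome 6, 7675169 to 7693254, minus strand), asparagine synthetase, was at 21.2, 21, 15.1 and 15.8 CPM in *Nrg1GOF* and at 10.8, 10.2, 11.5 and 11.2 CPM in WT. The WT libraries were close together and *Nrg1GOF* split into libraries 1 and 2 and, lower, libraries 3 and 4, with a log2 fold change of 0.75 (SE 0.13).

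*Chac1* (ENSMUSG00000027313, chromosome 2, 119351229 to 119354381, plus strand), which breaks down glutathione, was low, at 0.408, 0.810, 0.813 and 0.875 CPM in *Nrg1GOF* and at 0.344, 0.273, 0.445 and 0.533 CPM in WT. These stand for 5 to 19 counts per library, and *Nrg1GOF* library 1 lay within the WT range. The log2 fold change was 0.81 (SE 0.35). *Sesn2* (ENSMUSG00000028893, chromosome 4, 132492032 to 132510501, minus strand), an inhibitor of mTORC1 signalling induced by ATF4 and by p53, was at 12.9, 13.9, 11.7 and 14.6 CPM in *Nrg1GOF* and at 9.94, 11.2, 13.2 and 12.4 CPM in WT. The groups overlapped, with a log2 fold change of 0.17 (SE 0.11).

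**Figure D2:**
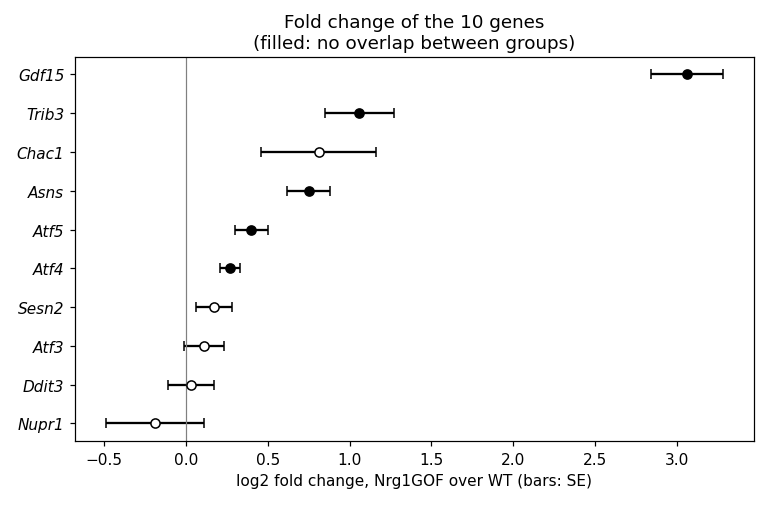
Log2 fold change of *Nrg1GOF* over WT for the 10 genes, with bars for the SE, filled where the groups do not overlap. *Gdf15* at 3.06 stands far from *Trib3* at 1.06, and *Ddit3* and *Nupr1* lie at 0.03 and -0.19.

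Set against exonic length, the order of the genes was led by *Atf4* in both genotypes. In WT, CPM per kb was 37.9 ± 2.20 for *Atf4*, 10.2 ± 0.46 for *Atf5*, 8.38 ± 1.01 for *Atf3*, 4.59 ± 0.20 for *Ddit3*, 3.99 ± 0.203 for *Asns* and 3.37 ± 0.412 for *Sesn2* (SD, n = 4 each). Below them came *Trib3* at 1.15 ± 0.203, *Nupr1* at 0.465 ± 0.0273, *Gdf15* at 0.362 ± 0.076 and *Chac1* at 0.243 ± 0.0696 CPM per kb. Among *Nupr1*, *Gdf15* and *Chac1* the ranges of mean and SD met or overlapped between neighbours. In *Nrg1GOF*, *Gdf15* moved up to 3.05 ± 0.501 CPM per kb, above *Trib3* at 2.44 ± 0.567 and below *Sesn2* at 3.82 ± 0.369, with ranges of mean and SD that overlapped at their edges. From *Atf3* at 9.13 ± 1.35 and *Asns* at 6.68 ± 1.21 down to *Trib3*, the range of mean and SD of each gene overlapped that of the next.

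The shallow *Nrg1GOF* library 4 held the highest *Nrg1GOF* value in 7 of the 10 genes (*Gdf15*, *Atf3*, *Atf5*, *Ddit3*, *Trib3*, *Chac1* and *Sesn2*). *Nrg1GOF* library 1 held the lowest in 5 and library 3 in 4. *Gdf15* and *Trib3* followed the same order in *Nrg1GOF*, from library 3 through 1 and 2 to 4, but not in WT, where *Gdf15* was highest in library 2 and *Trib3* in library 4. Without *Nrg1GOF* library 4, the log2 fold change was 0.95 for *Trib3*, 0.82 for *Asns*, 0.33 for *Atf5* and 0.26 for *Atf4*, and the same 5 genes passed.

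The sequences around the start sites were searched for the core of the element that ATF4 is known to bind with a C/EBP partner. The core TGATGNAA was searched on both strands in RefSeq windows (GRCm38) from 250 bases before to 50 bases after each start, and 10 of 10 genes had a window. A match was found in 5 genes, *Atf3*, *Trib3*, *Asns*, *Chac1* and *Nupr1*, and *Gdf15*, *Atf4*, *Atf5*, *Ddit3* and *Sesn2* held none. Among all genes with a window, 1219 of 27025 (4.51%) held a match, and 1304 of all 32851 windows (3.97%). Of the genes that rose across the transcriptome, 57 of 1844 with a window (3.09%) held one, against 311 of 11245 tested genes (2.77%). Of the other genes in the pathway lists, 14 of 101 (13.9%) held one. *Gdf15* had none in the windows of its 2 listed starts. A match is a run of letters and not a measured binding site. A gene without a match may still hold the element outside the window or with other letters. The 250 bases before the start are shown for *Gdf15* (chr8:70632457-70632706, minus strand), for *Asns* (chr6:7693210-7693459, minus strand) as a gene with a match that rose, and for *Chac1* (chr2:119350992-119351241, plus strand) as a gene with a match that did not pass, each from 5′ to 3′ with the match in capitals.
Gdf15: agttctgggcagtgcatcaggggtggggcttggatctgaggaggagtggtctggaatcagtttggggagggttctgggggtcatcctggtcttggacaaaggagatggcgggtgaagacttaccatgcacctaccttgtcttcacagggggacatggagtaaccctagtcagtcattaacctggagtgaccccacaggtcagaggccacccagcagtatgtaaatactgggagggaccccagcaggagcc
Asns: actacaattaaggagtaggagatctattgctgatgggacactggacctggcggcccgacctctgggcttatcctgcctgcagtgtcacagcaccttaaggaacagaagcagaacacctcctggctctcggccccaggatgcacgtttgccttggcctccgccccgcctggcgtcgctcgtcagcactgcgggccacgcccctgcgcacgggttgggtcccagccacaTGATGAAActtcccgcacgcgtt
Chac1: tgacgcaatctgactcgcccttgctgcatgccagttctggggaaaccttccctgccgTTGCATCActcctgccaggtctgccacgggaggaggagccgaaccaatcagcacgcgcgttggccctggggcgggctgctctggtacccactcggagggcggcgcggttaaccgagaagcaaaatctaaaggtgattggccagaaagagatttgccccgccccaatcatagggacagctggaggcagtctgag
The match of *Asns* begins 23 bases before the RefSeq start and that of *Chac1* 193 bases before it, on the opposite strand. The other matches are shown with 11 bases on either side, on the strand of the gene, and all 3 read as the reverse complement of the core. The *Trib3* start of RefSeq is not a transcript start in GENCODE. Those of *Atf3* and *Nupr1* both begin 110 bases before the start and that of *Trib3* lies 15 bases after it.
Atf3: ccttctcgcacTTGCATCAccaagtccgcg
Nupr1: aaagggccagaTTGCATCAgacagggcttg
Trib3: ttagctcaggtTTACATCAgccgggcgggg

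Beside the 10 genes, 129 further genes in 10 lists of the pathway and of other stress and handling responses were compared, of which 125 were tested. Of these, 55 rose and 10 fell (52.0% called, beside 28.7% of all tested genes), and their median log2 fold change was 0.19. The lists were drawn up with earlier results of these libraries known, so nothing is read from that share. The lists are described in the order of the pathway, from the kinases to the targets and then to the neighbouring stress responses.

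**Figure D3:**
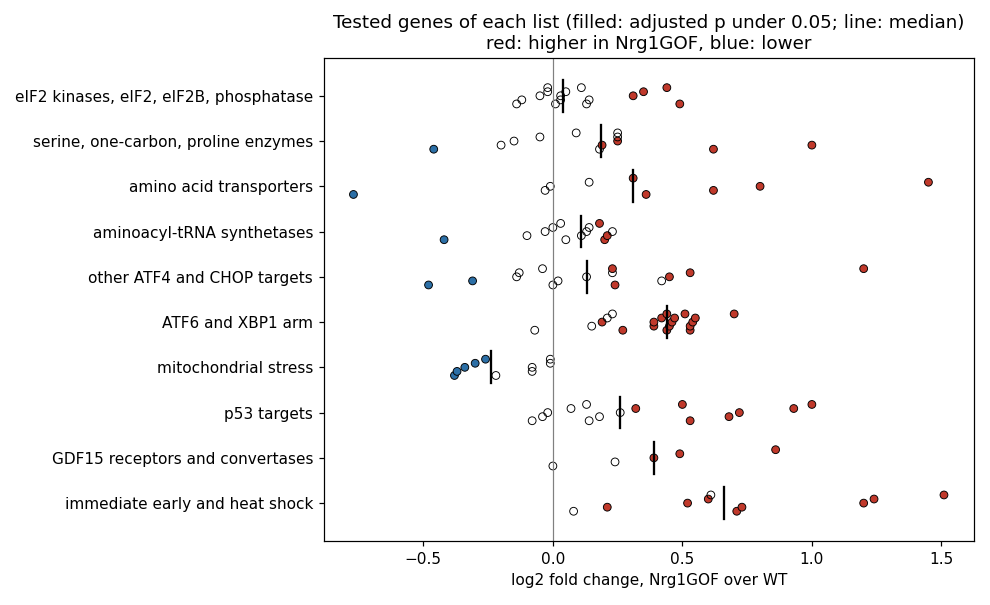
Log2 fold change of every tested gene in the 10 lists, with a vertical line at the median of each list. Filled points passed an adjusted p of 0.05 (red higher, blue lower in *Nrg1GOF*), and the list of the ATF6 and XBP1 arm, median 0.44, has no blue point while the list of mitochondrial stress, median -0.24, has no red one.

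At the top of the pathway, 1 of the 4 eIF2 kinases rose. *Eif2ak3*, which encodes the endoplasmic reticulum kinase PERK, was at 27.7, 27.8, 27 and 27 CPM in *Nrg1GOF* and at 20.8, 19.7, 19.5 and 18.1 CPM in WT, which is 0.49 on the log2 scale (SE 0.06, adjusted p = 0.000382). The groups were clearly apart. The heme-regulated kinase *Eif2ak1* was at 0.03 (SE 0.05, adjusted p = 0.714), the RNA-activated *Eif2ak2* at 0.11 (SE 0.06, adjusted p = 0.245) and the amino acid sensor GCN2, *Eif2ak4*, at -0.12 (SE 0.09, adjusted p = 0.353).

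*Ppp1r15a*, the stress-induced subunit that directs the phosphatase back to eIF2 and is itself a target of ATF4 and CHOP, was at 26.8 ± 2.10 CPM in *Nrg1GOF* and 21 ± 1.55 CPM in WT (SD, n = 4 each) and rose by 0.35 on the log2 scale (SE 0.08, adjusted p = 0.00888). Its call was lost when WT libraries 3 and 4 were the controls (adjusted p = 0.0518) or with the WT pairs summed (adjusted p = 0.052). Its constitutive relative *Ppp1r15b* was at 0.13 (SE 0.06, adjusted p = 0.163). *Impact*, an inhibitor of GCN2 signalling, rose by 0.44 (SE 0.08, adjusted p = 0.00389). The median of this list was 0.04. Of its 16 genes 4 rose (25.0%) and none fell, beside 15.9% higher and 12.8% lower of all tested genes. With the WT pairs summed 2 were left, and with WT libraries 3 and 4 as the controls the median was 0.11. None of the subunits of eIF2 and eIF2B passed.

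The lists built from known ATF4 targets were mixed. Together they held 49 tested genes, of which 17 rose, 5 fell and 27 did not pass, with a median log2 fold change of 0.14. That is 34.7% higher and 10.2% lower, beside 15.9% and 12.8% of all tested genes, with the same limit on how the lists were chosen. Among the metabolic enzymes 4 of 12 rose and 1 fell. *Pycr1*, which makes proline in mitochondria, was at 17.2, 17.9, 16.1 and 16.0 CPM in *Nrg1GOF* against 8.98, 8.46, 8.53 and 7.62 CPM in WT (log2 fold change 1.00, SE 0.09, adjusted p = 5.21e-05). *Mthfd2*, of the mitochondrial folate cycle, rose by 0.62 (SE 0.10, adjusted p = 0.00111), and *Aldh18a1*, which acts before *Pycr1* in proline synthesis, by 0.25 (SE 0.05, adjusted p = 0.00544). The serine synthesis genes *Phgdh* (0.18, adjusted p = 0.0509), *Psat1* (0.09, adjusted p = 0.289) and *Psph* (-0.05, adjusted p = 0.698) did not pass. *Got1*, the cytosolic aspartate aminotransferase, fell by 0.46 on the log2 scale (SE 0.06, adjusted p = 0.000523).

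Of 9 amino acid transporters 5 rose and 1 fell. *Slc1a4*, a carrier of neutral amino acids, was at 20.8, 20.1, 21.1 and 18.9 CPM in *Nrg1GOF* and at 11.8, 12.4, 11.8 and 10.8 CPM in WT (log2 fold change 0.80, SE 0.08, adjusted p = 8.66e-05). The arginine and lysine carrier *Slc7a1* rose by 0.62 (SE 0.07, adjusted p = 0.000217) and *Slc3a2*, the heavy chain of the leucine carrier, by 0.36 (SE 0.05, adjusted p = 0.000661). The glutamine carrier *Slc1a5* fell by 0.77 on the log2 scale (SE 0.17, adjusted p = 0.00882), but its call was lost when WT libraries 1 and 2 were the controls (-0.48, adjusted p = 0.0622). *Slc7a11*, the cystine carrier, ranged from 0.879 to 4.58 CPM within WT and from 1.75 to 3.04 CPM in *Nrg1GOF*.

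Of 13 genes in the list of aminoacyl-tRNA synthetases, which load amino acids onto tRNA, 3 rose and 1 fell. The list also holds *Xpot*, which exports tRNA and is no synthetase, and which did not pass (0.14, SE 0.07, adjusted p = 0.174). The rises were small, at 0.21 for *Aars* (SE 0.06, adjusted p = 0.0276), 0.20 for *Sars* (SE 0.06, adjusted p = 0.0315) and 0.18 for *Tars* (SE 0.04, adjusted p = 0.0147). *Gars* fell by 0.42 on the log2 scale (SE 0.08, adjusted p = 0.00434). The call of *Aars* was lost in 5 of the 8 fits that left out a library, namely *Nrg1GOF* 2 or 4 or WT 2, 3 or 4 (adjusted p = 0.0542 to 0.0821), and that of *Sars* in 4, without *Nrg1GOF* 2 or WT 1, 3 or 4 (adjusted p = 0.0620 to 0.0890). None of the 3 passed with WT libraries 1 and 2 as the controls, with the WT pairs summed or with no filter on low counts. With WT libraries 3 and 4 as the controls *Sars* (adjusted p = 0.0665) and *Tars* (adjusted p = 0.0661) did not pass either, and *Sars* was also lost after thinning to the smallest total (adjusted p = 0.062).

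Of 15 tested genes in the list of other ATF4 and CHOP targets, 5 rose and 2 fell. *Cebpb*, a partner of ATF4 on DNA, was at 6.13, 11.3, 8.60 and 22.1 CPM in *Nrg1GOF* and at 6.04, 4.31, 4.57 and 5.16 CPM in WT. *Nrg1GOF* library 4 held by far the highest value and library 1 was hardly above WT. The log2 fold change was 1.20 (SE 0.34, adjusted p = 0.0251), or 0.79 without library 4 (adjusted p = 0.0252), and the call was lost without *Nrg1GOF* 2 or WT 2, 3 or 4 (adjusted p = 0.0545 to 0.0613). It was also lost with the WT pairs summed (adjusted p = 0.119), with either pair as the controls (adjusted p = 0.114 for libraries 1 and 2 and 0.0685 for 3 and 4) and with limma-voom (0.90, adjusted p = 0.0544).

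Members of the tribbles family moved in opposite ways. *Trib1* rose by 0.53 (SE 0.09, adjusted p = 0.00198) and *Trib2* fell by 0.48 on the log2 scale (SE 0.05, adjusted p = 9.26e-05), beside the log2 fold change of 1.06 for *Trib3*. *Stc2*, a secreted glycoprotein, rose by 0.45 (SE 0.12, adjusted p = 0.0207), and *Eif4ebp1*, a repressor of translation, fell by 0.31 on the log2 scale (SE 0.10, adjusted p = 0.0359). The call of *Stc2* was lost without *Nrg1GOF* 1 or 2 or WT 1 or 2 (adjusted p = 0.0519 to 0.0734) and that of *Eif4ebp1* without *Nrg1GOF* 1 or 3 or any WT library (adjusted p = 0.0595 to 0.0933). *Stc2* was also lost with the WT pairs summed (adjusted p = 0.0803) and with WT libraries 3 and 4 as the controls (adjusted p = 0.114), and *Eif4ebp1* with the pairs summed (adjusted p = 0.157) and with either pair (adjusted p = 0.1 and 0.106). The 7 calls in this list became 2 without WT library 2, 3 without *Nrg1GOF* library 2 and 4 without WT library 1 or 3. With the WT pairs summed 3 of 16 tested genes passed, among them *Adm2*, which the main fit did not test. Its median was 0.13 over 15 tested genes. It was 0.22 with DESeq2 and 0.23 with no filter on low counts, both over 17 genes, since *Adm2* and *Fgf21* entered.

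*Fgf21*, the other hormone that mitochondrial and nutrient stress is known to release beside GDF15, had 1 count in *Nrg1GOF* library 3 and none elsewhere, which is below the floor of 3 counts. *Adm2*, a secreted peptide gene under ATF4, was removed by the filter on low counts and was looked at after its values were seen. It had 9 to 11 counts per library in *Nrg1GOF* and 1 to 3 in WT. With so few counts in WT, a filter on low counts can keep it only through the group where it was high. Its p values in the other fits are therefore not given.

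The arm of the unfolded protein response that runs through ATF6 and XBP1 was higher in most of its genes. These factors raise the chaperones and folding enzymes of the endoplasmic reticulum. Of 20 tested genes 16 rose (80.0%) and none fell, beside 15.9% higher and 12.8% lower of all tested genes. The median log2 fold change was 0.44, and the limit on how the lists were chosen holds here as well. *Hspa5*, the chaperone BiP, was at 1005, 901, 834 and 857 CPM in *Nrg1GOF* and at 743, 713, 536 and 541 CPM in WT, and it rose by 0.51 on the log2 scale (SE 0.12, adjusted p = 0.00986). The groups were apart, and within WT libraries 1 and 2 lay above libraries 3 and 4. *Sdf2l1*, a partner of BiP, rose by 0.70 (SE 0.14, adjusted p = 0.00547), the disulfide isomerase gene *Pdia6* by 0.55 (SE 0.08, adjusted p = 0.000752) and *Creld2*, another stress-induced gene of this compartment, by 0.54 (SE 0.10, adjusted p = 0.00396). *Xbp1* itself rose by 0.53 (SE 0.05, adjusted p = 7.13e-05), but counts per gene do not show its splicing. The 4 that did not pass were *Atf6*, *Ern1*, *Dnajb9* and *Herpud1*. The summed epicardial and fibroblast markers, 2488 to 3151 against 1425 to 1821 CPM, were higher as well, and their part in these levels was not tested. With WT libraries 1 and 2 as the controls 12 genes rose (median 0.30), and with WT libraries 3 and 4 it was 17 (median 0.55).

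The list of mitochondrial stress moved the other way. Its median was -0.24. Of its 10 genes none rose and 5 fell, beside 15.9% higher and 12.8% lower of all tested genes. With the WT pairs summed 3 fell. *Hspa9*, the mitochondrial HSP70, was at 697, 635, 582 and 696 CPM in *Nrg1GOF* and at 867, 851, 824 and 849 CPM in WT, which is -0.38 on the log2 scale (SE 0.07, adjusted p = 0.00223). *Dele1*, which carries the signal of mitochondrial damage to the heme-regulated eIF2 kinase, fell by 0.37 on the log2 scale (SE 0.06, adjusted p = 0.00230). *Trap1*, a mitochondrial HSP90, fell by 0.34 (SE 0.06, adjusted p = 0.00315). The summed ventricular cardiomyocyte markers were lower in *Nrg1GOF* as well, 23401 to 29247 against 34394 to 35871 CPM. The share of counts from mitochondrial genes was 3.1% to 4.35% in *Nrg1GOF* and 4.3% to 5.78% in WT, overlapping in *Nrg1GOF* library 3 and WT library 1. The part of either in these levels was not tested.

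*Gdf15* is also a target of p53. In the list of p53 targets 7 of 15 genes rose and none fell, beside 15.9% higher and 12.8% lower of all tested genes. The median of the list was 0.26. The median was 0.40 without *Nrg1GOF* library 3 and 0.18 without *Nrg1GOF* library 1, and 5 genes rose with WT libraries 1 and 2 as the controls. *Cdkn1a*, which encodes the cell cycle inhibitor p21, was at 65.2, 62, 55.3 and 70.9 CPM in *Nrg1GOF* and at 37, 31.6, 32.4 and 31.5 CPM in WT, which is 0.93 on the log2 scale (SE 0.08, adjusted p = 7.03e-05). *Pmaip1*, which encodes the death factor NOXA, rose by 1.00 (SE 0.22, adjusted p = 0.00837), though its call was lost when WT libraries 1 and 2 were the controls (adjusted p = 0.0676), and the receptor gene *Eda2r* rose by 0.72 (SE 0.13, adjusted p = 0.00259). *Mdm2*, the p53 ubiquitin ligase, was at 0.07 (SE 0.06, adjusted p = 0.404) and *Trp53* at -0.02 (SE 0.07, adjusted p = 0.874).

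Immediate early genes and heat shock genes, which respond to growth factor signals and to tissue handling alike, made the last list. In it 8 of 10 rose (median 0.66), beside 15.9% of all tested genes. *Egr1*, a known activator of *Gdf15*, was at 41, 44.4, 43 and 35 CPM in *Nrg1GOF* and at 17.5, 18.1, 18.9 and 16.8 CPM in WT, which is 1.20 on the log2 scale (SE 0.08, adjusted p = 1.28e-05). *Fos* rose by 1.51 (SE 0.16, adjusted p = 0.000126) and *Junb* by 0.73 (SE 0.15, adjusted p = 0.00519), while *Jun* was at 0.08 (SE 0.08, adjusted p = 0.480).

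Finally, the genes whose pattern over the 8 libraries was most like that of *Gdf15* were sought, by the root-mean-square difference of log2 CPM after each gene was centred on its own mean. They were *Syt12* (0.19), a synaptotagmin, *Sost* (0.29), a secreted Wnt inhibitor, *Slc17a8* (0.30), a vesicular glutamate transporter, *Nppa* (0.31), the atrial natriuretic peptide, and *Moxd1* (0.38), a monooxygenase-like protein. Their log2 fold changes, 2.88, 2.75, 3.35, 2.48 and 2.53, were near that of *Gdf15*, as the measure requires. *Syt12* stood at 3.21 to 4.76 CPM in *Nrg1GOF* and 0.283 to 0.688 CPM in WT, and with the exception of *Nppa* the 5 were lowest in WT library 3, as *Gdf15* was. The 8 other stress response genes that were ranked lay farther from it, and *Chac1* was too low to be ranked. *Trib3* was the nearest of them at a difference of 0.98, in place 362 of 14324 genes, followed by *Asns* at 1.13 in place 879, and *Nupr1* was in place 12467. The measure takes in the size of the gap between the groups, so these places largely restate the smaller log2 fold changes of these genes. They do not show whether the genes vary with *Gdf15* from library to library within a genotype.

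**Figure D4:**
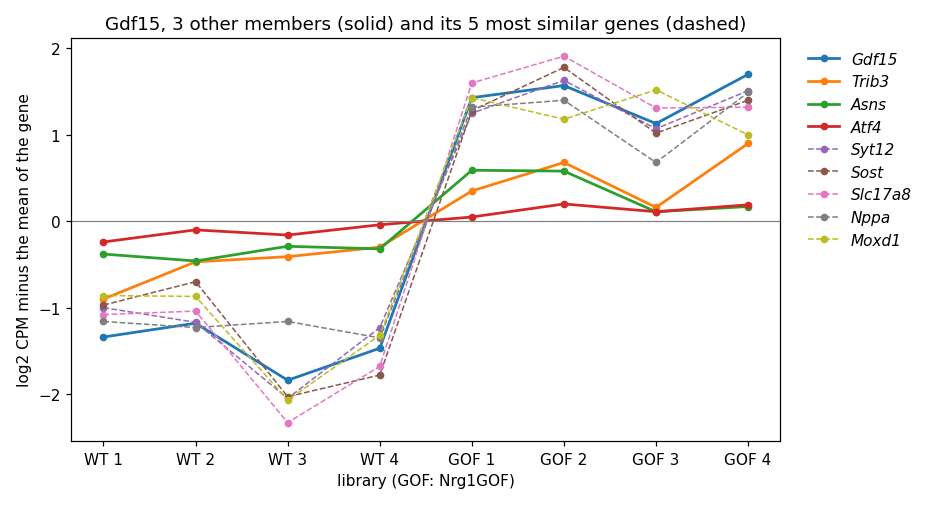
Log2 CPM (prior count of 2) of each gene minus its own mean over the 8 libraries, WT libraries first. *Gdf15* (solid) and its 5 most similar genes (dashed) lie between -2.33 and -0.70 in WT and between 0.68 and 1.91 in *Nrg1GOF*, while *Trib3*, *Asns* and *Atf4* (solid) stay between -0.90 and 0.90.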

How the data were processed

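Gene-level expected counts from RSEM were deposited by the authors (RSEM 1.3.1 and cutadapt are named in the submitters' processing notes), made against GRCm38 with Ensembl release 91, from directional poly(A) libraries of 100 ng RNA read as 60-base single reads. The estimated counts are not scaled for depth or length, and 8.42% to 13.2% of values per library are not whole. The aligner and strand setting are not given in the sources used here. Counts were rounded, filtered with filterByExpr, scaled by TMM, and the genotypes compared in edgeR 4.0.16 (R 4.3.3) with its quasi-likelihood F-test and genotype as the sole term. The study likewise used edgeR. P values were adjusted by Benjamini-Hochberg over all tested genes, two-sided, with a threshold of 0.05, and SE is the absolute log2 fold change over the square root of F. On simulated data with 200 of 15580 genes changed, the fit recovered 168 of them and made 12 false calls. The simulated libraries were independent, so the run does not cover the close WT pairs.

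The members and lists were chosen with earlier results of these data known. Beside the members and the hubs of each list (the eIF2 kinases and their phosphatase subunits, *Gfral*, *Fgf21*, *Cdkn1a* and *Hspa5*), up to 3 called genes with the highest and 3 with the lowest log2 fold change were named per list, if their average log2 CPM reached 0, and the 5 genes most like *Gdf15*. Other genes were named to fill in a list and were chosen after their values were seen. A table of gene names gave symbols for 53274 of 53465 identifiers, *Mars1* was found through a RefSeq synonym, coordinates and exonic lengths are from GENCODE M21 (GRCm38), and promoters from RefSeq. Near-identical transcripts were sought with BLAST+ 2.17.0 at 95% identity over 60 bases or more.

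Replicate numbers come from the sample titles. Deviations from the group means correlated at 0.129, 0.0492, 0.199 and 0.0668 between libraries of the same number, 1 to 4. The mean was 0.111, against -0.0373 for libraries of different numbers. No litter was given, so it is not known whether samples of the same number were related. The main fit treated all samples as unpaired. Alternatives were the replicate number as a block, the likelihood ratio test, DESeq2 1.42.0, limma-voom (limma 3.58.1), other scalings and filters, thinning to the smallest total, the WT pairs summed or taken alone, a threshold of 0.01 and leaving out each library. Floors of 3 counts cover counting error only.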

Additional observations from a re-analysis of the deposited data

Results flagged for a closer look

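The 10 stress response genes and the genes picked by the naming rule were searched, within each genotype, for 1 library far from the other 3 by Dixon's test. This was met in 5 of 111 cases, where chance at 1 in 20 gives 5.55. *Chac1* was at 0.408 CPM in *Nrg1GOF* library 1, and the others of that genotype were at 0.810 to 0.875 CPM. WT library 1 stood apart for *Trib1* (18 CPM against 22.4 to 22.7), *Cdkn1a* (37 CPM against 31.5 to 32.4) and *Pcsk6* (16.3 CPM against 13.2 to 13.7). *Fgf21* was at 0.0428 CPM in *Nrg1GOF* library 3, which is 1 count, and at 0 in the other *Nrg1GOF* libraries.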

How the results depend on the processing

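Of the 10 genes, 5 passed under the other models, scalings and filters and after thinning. The call of *Atf5* alone was lost, so that 4 were left, with the WT pairs summed, with WT libraries 1 and 2 as the controls, without *Nrg1GOF* library 2 and at the threshold of 0.01. The log2 fold change of *Gdf15* stayed between 2.69 and 3.29. With the replicate number as a block, 5 of the 10 genes, 64 of the list genes and 4524 genes in all were called, and 4 of 8 libraries correlated best with the library of their own number. Over all genes, 2464 were called with the WT pairs summed and 2535 at an adjusted p of 0.01, the latter by its construction, and without a library 3239 to 4261. For the WT pairs the cause was not tested. Scaling by library totals put 2874 genes higher and 1521 lower, against 2474 and 1993. The list genes called ranged from 49 to 66 without a library.

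Values near 0 changed sign. *Atf3* was at -0.024 and *Eif2ak1* at -0.0026 with WT libraries 1 and 2 as the controls. *Ddit3* was at -0.0064 with WT libraries 3 and 4 as the controls, -0.022 with limma-voom, -0.0024 without *Nrg1GOF* library 2 and -0.037 without *Nrg1GOF* library 4, and without 1 library it ranged from -0.037 to 0.15. *Nupr1* was at 0.0016 without *Nrg1GOF* library 3, in a range of -0.39 to 0.0016. The cause was not tested. Depth limits *Chac1*, *Nupr1* and the WT level of *Gdf15*, which rest on few counts, and *Fgf21* and *Adm2*, which the filter on low counts removed. With no filter *Fgf21* did not pass (adjusted p = 0.491). In *Nrg1GOF* library 4, 3 counts stand for 0.375 CPM.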
